A study of Homo sapiens with 6 samples.

Results

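Integrin and laminin chains were followed in the morphologically distinct cells of the chordoma cell line MUG-Chor1. Integrins are receptors for the extracellular matrix that consist of an alpha and a beta chain, and the pair decides which ligand is bound. Laminins are trimers of an alpha, a beta and a gamma chain that form the sheet of the basement membrane, to which cells attach through laminin-binding integrins. The notochord, which chordomas recapitulate, is wrapped in a sheath with a laminin-rich basement membrane, and in zebrafish the loss of laminin beta and gamma chains disturbs notochord formation.

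Members were the genes whose symbol names an integrin alpha chain, an integrin beta chain or a laminin chain, each represented by the probe set with the highest mean over the 6 arrays. The rule names 38 genes, of which 35 had a probe set with a single gene symbol, out of 18404 genes measured in this way. *ITGA1*, a collagen-binding alpha chain, shares its probe set with *PELO* and was not analysed here. The other genes without such a probe set were not analysed here either. The 35 members are 17 integrin alpha chains, 8 integrin beta chains and 10 laminin chains.

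Pools of 20 large physaliferous MUG-Chor1 cells, that is cells with many vacuoles, were set against pools of 20 small non-vacuolated MUG-Chor1 cells. All pools came from this cell line, without any drug treatment, and were taken after trypsin had released the cells from the dish. RNA was amplified directly from each pool, and every pool had its own Affymetrix Human Gene ST array. There were 3 large pools (pools 2, 3 and 4) and 3 small pools (pools 5, 6 and 7). No source names separate cultures for the pools, so a p-value covers only the spread among them, which may be technical. As each array measured a pool, fewer cells of a type and less RNA per cell cannot be told apart. Values are log2 expression after robust multi-array averaging, which gives 1 value per probe set and array. Probe sets differ in their response, so levels are compared between pools and not between genes.

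An expression floor of log2(100), that is 6.64, was used to describe levels. This floor lay close to the array medians, which were 6.64 to 6.68 in large and 6.73 to 6.76 in small pools, so a value above it is a weak sign of expression. The arrays correlated with each other at 0.896 to 0.929 (Pearson r over probe sets of 1 array against another, and probe sets are no independent replicates), and no pool stood apart. Of 10 chordoma and notochord markers 9 had a mean above the floor, among them brachyury (*TBXT*), with values from 10.17 to 10.39. *EPCAM* had the mean below it. Genes at or below the floor tended to lower values in large pools in general, since 73.8% of all genes with a mean below the floor were lower there, against 61.1% of those with a mean above it.

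*LAMC1*, the gamma chain shared by most laminins, and *LAMA4*, an alpha chain of endothelial and mesenchymal basement membranes, were higher in each of the 3 large pools than in any small pool. *LAMA5*, the alpha chain of most adult epithelial basement membranes, was lower in each large pool than in any small pool. The promoters of these 3 genes are shown because the chains differed in direction. They are the RefSeq sequences of GRCh38.p14, 300 bases around a transcript start that RefSeq lists for the gene, with each GC box (GGGCGG on either strand) in capitals. *LAMC1* lies on the plus strand at chr1:183023170-183023469, *LAMA4* on the minus strand at chr6:112254518-112254817 and *LAMA5* on the minus strand at chr20:62367263-62367562. The windows of *LAMC1* and *LAMA5* span the outer end of the annotated gene, whereas that of *LAMA4* lies inside the gene, so the letters of *LAMA4* are those of an internal start.
LAMC1: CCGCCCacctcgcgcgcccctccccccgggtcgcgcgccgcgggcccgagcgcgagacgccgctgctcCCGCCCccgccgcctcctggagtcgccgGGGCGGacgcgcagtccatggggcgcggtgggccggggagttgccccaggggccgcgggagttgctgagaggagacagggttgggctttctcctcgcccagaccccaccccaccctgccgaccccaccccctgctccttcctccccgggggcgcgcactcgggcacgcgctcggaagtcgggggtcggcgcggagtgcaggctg
LAMA4: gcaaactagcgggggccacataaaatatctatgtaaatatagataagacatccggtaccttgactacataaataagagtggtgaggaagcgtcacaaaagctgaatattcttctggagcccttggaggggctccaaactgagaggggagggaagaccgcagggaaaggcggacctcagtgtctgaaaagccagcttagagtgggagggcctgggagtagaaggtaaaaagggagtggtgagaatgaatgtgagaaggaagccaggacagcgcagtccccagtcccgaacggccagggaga
LAMA5: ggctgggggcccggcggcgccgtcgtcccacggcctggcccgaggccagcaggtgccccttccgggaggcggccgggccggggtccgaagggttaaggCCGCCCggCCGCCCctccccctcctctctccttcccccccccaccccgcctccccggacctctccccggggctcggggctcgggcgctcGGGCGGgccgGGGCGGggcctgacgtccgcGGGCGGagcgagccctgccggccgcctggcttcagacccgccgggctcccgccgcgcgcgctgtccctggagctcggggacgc

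The promoter of *LAMC1* held 3 GC boxes and 41 CpG dinucleotides, and that of *LAMA5* held 5 GC boxes and 41 CpG dinucleotides. The promoter of *LAMA4* held no GC box and 8 CpG dinucleotides. Over all 35116 promoters in RefSeq, 45% held a GC box, and the median was 14 CpG dinucleotides. Of the members 24 had an entry, with 31 promoters, of which 18 (58.1%) held a GC box. The sequence TCACACCT, a match to the binding motif of T-box factors such as brachyury, was in 0 of the 31 promoters on either strand and in 0.98% of all promoters. CCAAT was in 6 of the 31 (19.4%) against 34.6% of all, and TATAAA in 2 of the 31 (6.45%) against 11.5% of all. These counts describe letters in these windows only.

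*LAMC1* had log2 expression of 10.00, 10.06 and 9.65 in large pools 2, 3 and 4, against 9.30, 9.27 and 9.44 in small pools 5, 6 and 7. The lowest large pool lay above the highest small pool. *LAMC1* averaged 9.90 ± 0.22 in large and 9.34 ± 0.09 in small cells (SD, n = 3 pools each). The log2 fold change was 0.57, with a standard error of 0.14 and a 95% confidence interval of 0.23 to 0.90. By limma the unadjusted p was 0.0062 and the adjusted p over all genes 0.32, so *LAMC1* did not pass. *LAMA4* had 10.79, 10.87 and 10.78 in large pools, against 10.61, 10.35 and 10.59 in small pools. All large pools lay above all small pools. The log2 fold change was 0.30 (standard error 0.11, interval 0.03 to 0.56), with an adjusted p of 0.33 from limma. Of 6 endothelial markers 1 was higher and 5 were lower in large cells, where 66.4% of all genes were lower. *PECAM1*, *CDH5*, *VWF* and *TEK* were below the floor in all pools. *KDR*, the receptor of vascular endothelial growth factor, was the higher one and was above the floor in all pools. Its groups overlapped, with a log2 fold change of 0.12. *CLDN5* was also above the floor in all pools and was lower in large pools. Its groups did not overlap, with a log2 fold change of -0.24. The part of these markers in the values of *LAMA4* was not tested.

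*LAMA5* had 7.08, 6.91 and 7.12 in large pools, against 7.31, 7.33 and 7.48 in small pools. Here all large pools lay below all small pools. The log2 fold change was -0.34 (standard error 0.11, interval -0.60 to -0.08), with an adjusted p of 0.32 from limma. *LAMC3*, a gamma chain with a narrow tissue range, had 7.35, 7.25 and 7.34 in large pools, against 7.56, 7.48 and 7.47 in small pools. The groups did not overlap either, and the log2 fold change was -0.19 (interval -0.41 to 0.03). Its adjusted p was 0.35 from limma.

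*LAMB2*, a beta chain that joins *LAMC1* and an alpha chain in a trimer, was the only beta chain with a mean above the floor. It had 7.62, 7.57 and 7.71 in large pools, against 7.70, 7.50 and 7.64 in small pools. The groups overlapped, and the log2 fold change of 0.02 had an interval of -0.23 to 0.27. *LAMB1*, another laminin beta chain, was below the floor in all 6 pools, with 6.18 to 6.32 in large and 5.88 to 6.50 in small pools. Of the 10 laminin chains, *LAMA4*, *LAMA5*, *LAMB2*, *LAMC1* and *LAMC3* had a mean above the floor and were above it in 6 of 6 pools each.
*LAMA1*, *LAMA2*, *LAMB1*, *LAMB3* and *LAMB4* were below the floor in 6 of 6 pools each. Among them *LAMA1*, the alpha chain of early embryonic basement membranes, had 6.25, 6.25 and 6.19 in large pools, against 6.41, 6.35 and 6.38 in small pools. Its groups did not overlap, with a log2 fold change of -0.15 (interval -0.36 to 0.06) and an adjusted p of 0.40 from limma. The others had log2 fold changes from -0.17 for *LAMB3* to 0.07 for *LAMB1*.

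**Figure D1:**
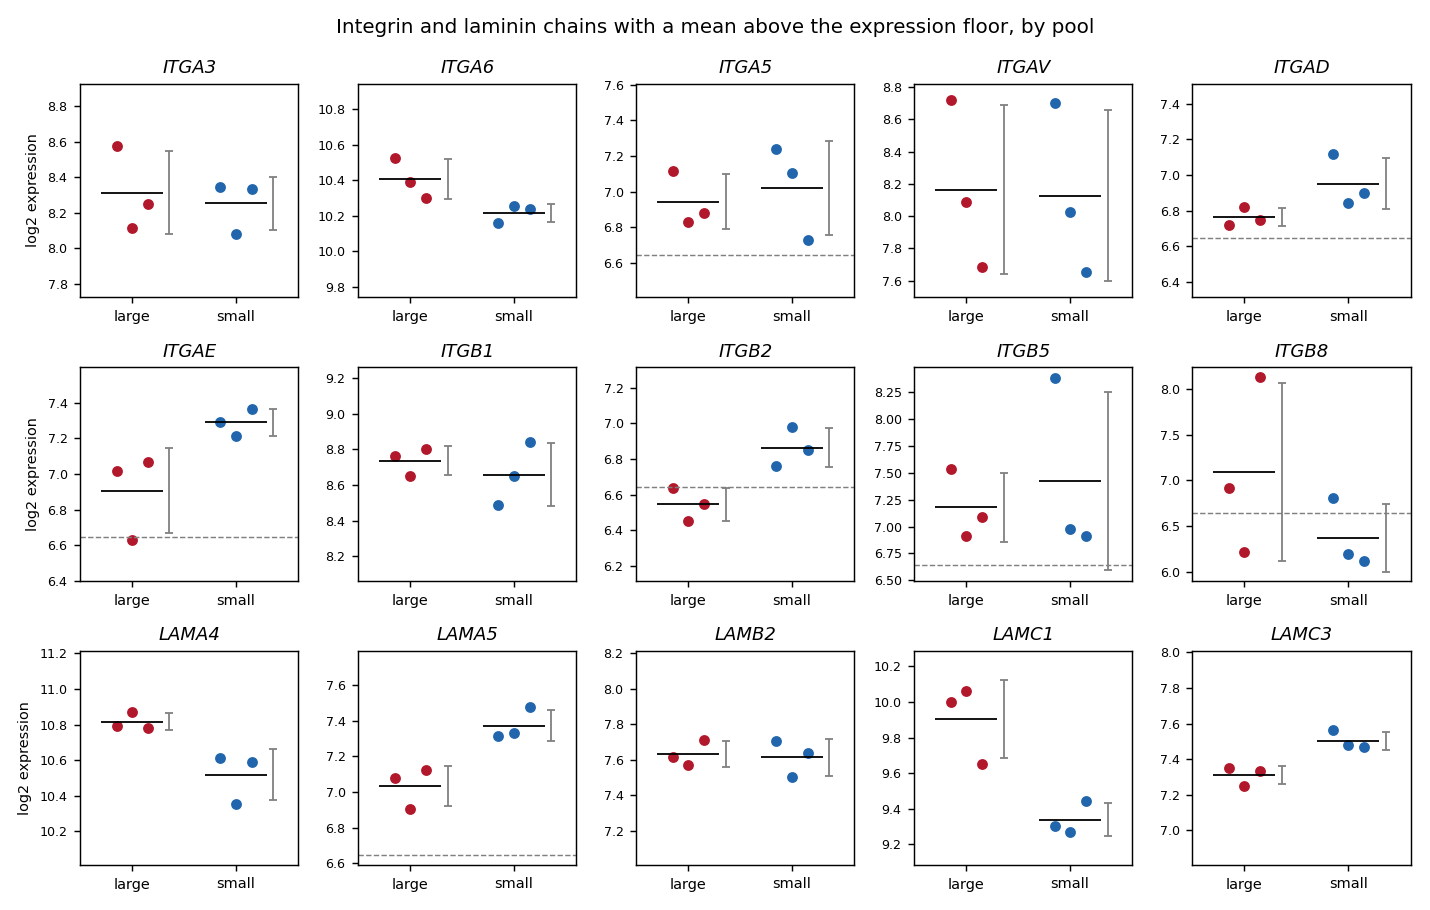
Log2 values (vertical axes, each panel with its own range) in 3 large and 3 small pools for the 15 members with a mean above the expression floor. Points are single pools and black lines their means, grey bars show 1 SD to either side (n = 3 pools), and a dashed line marks the floor of 6.64. The large pools lie above the small pools for *LAMC1*, *LAMA4* and *ITGA6* and below them for *LAMA5*, *LAMC3*, *ITGAE*, *ITGB2* and *ITGAD*, and *ITGAV* spreads over a similar range in both groups.

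Among the laminin-binding alpha chains, *ITGA6* and *ITGA3* were above the floor in 6 of 6 pools, while *ITGA7* was near it. *ITGA6*, which pairs with *ITGB1* or *ITGB4*, had 10.53, 10.39 and 10.30 in large pools, against 10.16, 10.26 and 10.24 in small pools. Here too the groups were apart. The log2 fold change was 0.19 (standard error 0.10, interval -0.06 to 0.43), with an adjusted p of 0.38 from limma. *ITGA3*, which pairs with *ITGB1*, had 8.57, 8.12 and 8.25 in large pools, against 8.35, 8.08 and 8.33 in small pools. These groups overlapped, and the log2 fold change was 0.06 (interval -0.31 to 0.43).
*ITGA7*, the laminin receptor of muscle fibers, had 6.29, 6.49 and 6.31 in large pools, against 6.75, 6.79 and 6.73 in small pools. It was above the floor in 0 of 3 large and in 3 of 3 small pools. The log2 fold change was -0.39 (standard error 0.10, interval -0.63 to -0.15), with an unadjusted p of 0.0072 and an adjusted p of 0.32 from limma. As its values lay near the floor, the size of this difference is uncertain. Of the skeletal muscle markers 6 of 6 were lower in large pools, against 66.4% of all genes and 73.8% of genes with a mean below the floor. Their summed level (log2 of the summed intensities) was 8.85 to 8.98 in large and 9.11 to 9.21 in small pools. Of these, *MYH1*, *MYH7*, *CKM* and *MYOD1* were below the floor in all pools, *DES* and *ACTA1* were above it in all pools, and their part in the result was not tested.

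Of the alpha chains that recognise the RGD sequence of fibronectin and vitronectin, *ITGA5* and *ITGAV* were above the floor in 6 of 6 pools. *ITGA5*, the fibronectin receptor chain, had 7.12, 6.83 and 6.88 in large pools, against 7.24, 7.10 and 6.73 in small pools, and the groups overlapped. Its log2 fold change was -0.08 (interval -0.48 to 0.32). *ITGAV*, which pairs with *ITGB1*, *ITGB3*, *ITGB5*, *ITGB6* or *ITGB8*, had 8.72, 8.09 and 7.68 in large pools, against 8.70, 8.03 and 7.66 in small pools. The pools of either phenotype thus spread widely, and the log2 fold change was 0.04 (interval -0.83 to 0.90). *ITGA8* was below the floor in 6 of 6 pools.
*ITGA2B*, the platelet fibrinogen receptor chain, had 6.25, 6.35 and 6.45 in large pools, against 6.68, 6.62 and 6.57 in small pools. The groups did not overlap, with a log2 fold change of -0.28 (interval -0.52 to -0.04) and an adjusted p of 0.32 from limma. The values of *ITGA2B* lay near the floor, so the size of this difference is uncertain. Its partner *ITGB3* was below the floor in all pools, with 5.29 to 5.58 in large and 5.51 to 5.70 in small pools. Of the platelet markers, *PPBP* was below the floor in all pools and *PF4*, *GP6* and *TREML1* were above it in all pools. *GP1BA* and *GP9* were above it in some pools only, and their groups overlapped. Of the 6 platelet markers 1 was higher and 5 were lower in large cells, where 66.4% of all genes were lower. The groups did not overlap for 2 of the lower ones, against 21.6% of all genes, and 0 had an unadjusted p under 0.05 from limma. The summed level of the 6 platelet markers was 9.55 to 9.59 in large and 9.66 to 9.78 in small pools, and its part in the values of *ITGA2B* was not tested.

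The collagen-binding chains *ITGA2*, *ITGA10* and *ITGA11* had means below the floor. *ITGA11* had 6.34, 6.31 and 6.31 in large pools, against 6.47, 6.53 and 6.57 in small pools. The groups did not overlap, and the log2 fold change was -0.20 (interval -0.41 to 0.01), with an adjusted p of 0.34 from limma. Of the fibroblast markers 10 of 10 were lower in large cells, against 66.4% of all genes. At an unadjusted p under 0.05 from limma 0 of them were lower, against 10.5% of all genes. The groups did not overlap for 2 of the 10, against 21.6% of all genes with lower values. Their summed level was 10.6 to 10.9 in large and 11.1 to 11.4 in small pools. *THY1* had the highest values of the list, which weigh most in this sum, and its groups overlapped. *COL1A1*, *COL1A2*, *COL3A1* and *THY1* were above the floor in all pools, and *DCN*, *PDGFRA* and *FAP* were below it in all pools. The part of these markers in the values of *ITGA11* was not tested. *ITGA2* had a log2 fold change of 0.23 (interval -0.26 to 0.72) and *ITGA10* one of -0.27 (interval -0.79 to 0.25). *ITGA4* and *ITGA9*, chains of cell migration that bind *VCAM1* and tenascin, were below the floor in all pools, with log2 fold changes of -0.19 and -0.13.

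Of the 5 alpha chains of leukocytes, *ITGAD* and *ITGAE* had a mean above the floor. *ITGAL*, *ITGAM* and *ITGAX*, partners of *ITGB2*, were below the floor in 6 of 6 pools, with log2 fold changes of -0.03, -0.09 and -0.12. *ITGAD* had 6.72, 6.82 and 6.75 in large pools, against 7.12, 6.84 and 6.90 in small pools. Its large pools all lay below its small pools, with a log2 fold change of -0.19 (interval -0.46 to 0.08) and an adjusted p of 0.40 from limma. *ITGAE*, the chain of intraepithelial lymphocytes that binds E-cadherin, had 7.02, 6.63 and 7.07 in large pools, against 7.29, 7.22 and 7.37 in small pools. All large pools lay below all small pools, with a log2 fold change of -0.39 (interval -0.73 to -0.04) and an adjusted p of 0.33 from limma. *ITGB7*, its known partner, had a mean below the floor and values of 6.17 to 6.58 in large and 6.49 to 6.70 in small pools.
*ITGB2*, the common beta chain of leukocyte integrins, had 6.64, 6.45 and 6.55 in large pools, against 6.76, 6.98 and 6.85 in small pools. It was above the floor in 0 of 3 large and 3 of 3 small pools, with a log2 fold change of -0.32 (interval -0.58 to -0.06) and an adjusted p of 0.32 from limma. The values of *ITGB2* lay near the floor, so the size of this difference is uncertain. Of 9 leukocyte markers measured, 5 were below the floor in 6 of 6 pools, including *PTPRC*, the pan-leukocyte phosphatase, with 4.41 to 4.64. *CD68*, which is also a lysosomal protein of other cells, and *TYROBP* were above it in all pools. The summed level of the leukocyte markers was 9.84 to 10.10 in large and 9.70 to 9.98 in small pools, and these ranges overlapped. Of these markers 2 were higher and 7 lower in large cells, where 66.4% of all genes were lower. *CD68* had a log2 fold change of 0.60, while *TYROBP* had -0.29 with groups that did not overlap. The part of these markers in the values of *ITGB2* and *ITGAE* was not tested.

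*ITGB1*, the beta chain with the most alpha partners, had 8.77, 8.65 and 8.80 in large pools, against 8.49, 8.65 and 8.84 in small pools. The small pools enclosed the large ones, and the log2 fold change was 0.08 (interval -0.22 to 0.38). *ITGB4*, the hemidesmosomal partner of *ITGA6*, had a mean below the floor, with 6.55, 6.35 and 6.49 in large pools, against 6.62, 6.67 and 6.60 in small pools. Its groups did not overlap, with a log2 fold change of -0.16 (interval -0.40 to 0.07). *ITGB3* and *ITGB6* were below the floor in 6 of 6 pools.
*ITGB5* and *ITGB8*, partners of *ITGAV*, varied most between pools. *ITGB5* had 7.54, 6.91 and 7.09 in large pools, against 8.38, 6.97 and 6.92 in small pools. The mean of the small pools rested on pool 5, and the log2 fold change was -0.24 (interval -1.27 to 0.78) and 0.23 without that pool. *ITGB8*, which takes part in the release of TGF-beta from its latent form, had 6.92, 6.22 and 8.13 in large pools, against 6.80, 6.20 and 6.12 in small pools. Pool 4 was the highest, and the log2 fold change was 0.71 (interval -0.48 to 1.90), 0.19 without it and 1.15 without large pool 3. Mitosis genes also varied between pools, with a summed level of 9.97 to 12.20 in large and 11.03 to 12.06 in small pools, and their part in these values was not tested. The pooled SD between pools had a median of 0.12 over the 35 members and of 0.18 over all genes.

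A gene was called where limma gave an adjusted p under 0.05 together with a log2 fold change beyond 1 in size. By this rule 0 of the 35 members and 0 of 18404 genes (0%) were called. With unexpressed and unchanged genes removed first, the authors reported *ALG11*, *UCHL3*, *TMEM144* and *PPP2CB* at these thresholds, and these are not members. At an unadjusted p under 0.05 from limma, 2 members (5.71%) were higher in large cells, *LAMC1* and *LAMA4*, against 4.33% of all genes. In the other direction 5 members (14.3%) were lower, *ITGA7*, *LAMA5*, *ITGB2*, *ITGA2B* and *ITGAE*, against 10.5% of all genes. The groups did not overlap with higher values in large cells for 3 members (8.57%), against 5.48% of all genes, and with lower values for 10 members (28.6%), against 21.6% of all genes. With so few members these shares are close to those of all genes. With 3 pools in each group, 0.1 is the smallest p that an exact two-sided permutation test allows. The 95% confidence interval of the log2 fold change lay between -1 and 1 for 33 of 35 members, with *ITGB5* and *ITGB8* as the exceptions.
Of the members 11 had a log2 fold change above 0 and 24 below, with a median of -0.13, against a median of -0.11 over all genes, of which 66.4% were lower in large cells. Of the 15 members with a mean above the floor, 8 were higher and 7 lower (median 0.02). Of all genes above the floor 61.1% were lower (median -0.09). *ITGB2* reached this mean through its small pools, with 0 of 3 large pools above the floor. *ITGB8* reached it mainly through large pool 4. The directions of these genes are therefore no independent result there. Of the 20 members below the floor 17 were lower (median -0.16). Of all genes below the floor 73.8% were lower (median -0.12). Laminin chains were split into 5 higher and 5 lower.

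**Figure D2:**
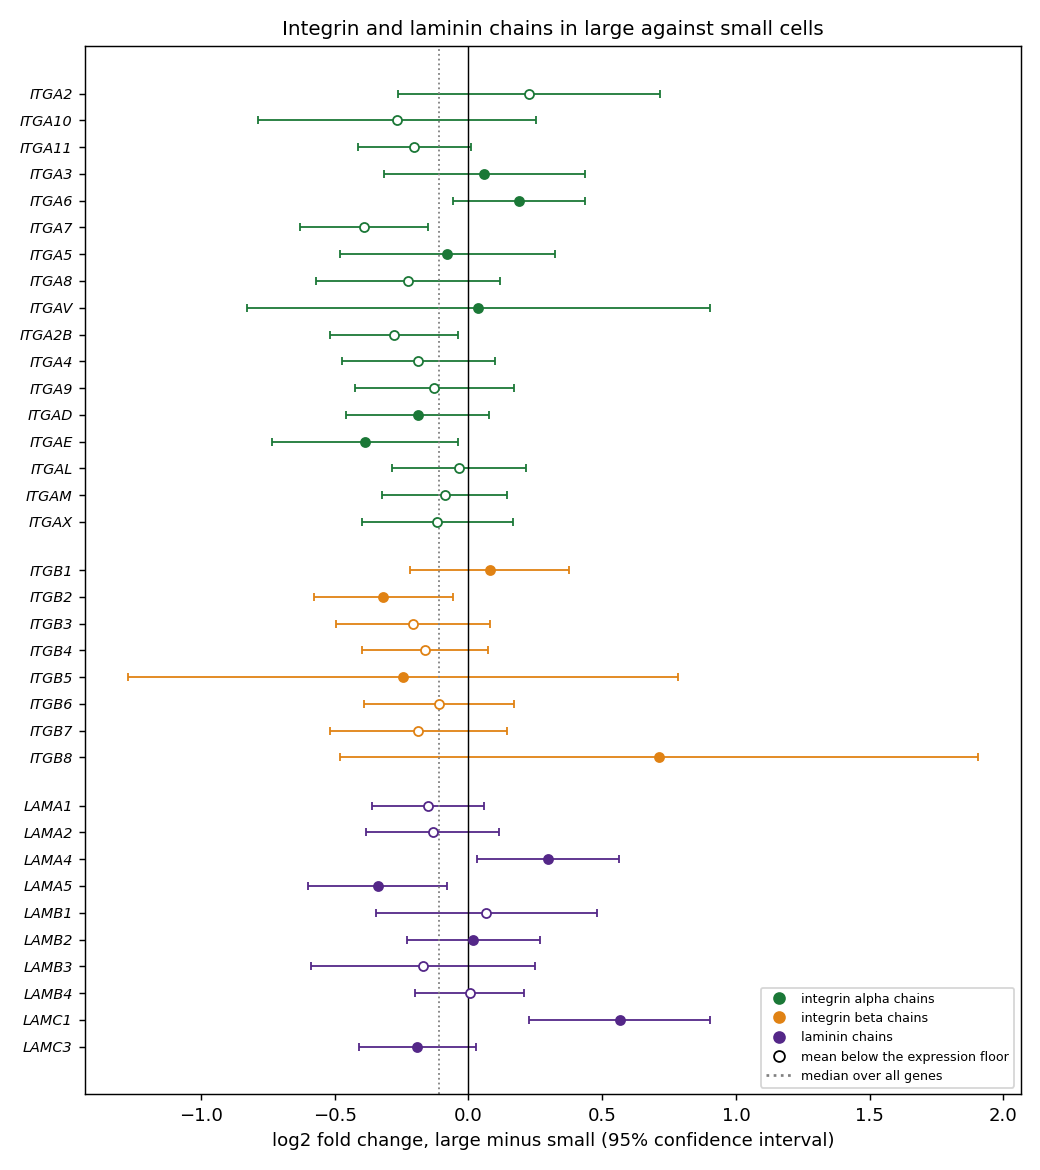
The horizontal axis gives the log2 fold change, large minus small, of the 35 members by family, and bars are 95% confidence intervals by limma (n = 3 pools each). Filled points have a mean above the expression floor, open points a mean below it, and the dotted line is the median over all genes (-0.11); *LAMC1* lies farthest to the right among the members whose interval excludes 0.

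The balance of directions depended on the scaling of the arrays. At an unadjusted p under 0.05 from limma the lower genes made up 70.8% in the deposited values, 56.6% once the arrays were quantile normalized again and 37.3% once their medians were set equal. Of the members, 2 were then higher and 2 lower after quantile normalization, and 3 higher and 1 lower after centring. Of all genes, 4.53% were higher and 5.9% lower after quantile normalization, and 6.56% higher and 3.9% lower after centring. The median over all genes was -0.07 and -0.03 in these settings, and that of the members -0.08 and -0.05. Non-overlapping groups in all 3 scalings were found for 3 members with higher values, *LAMC1*, *LAMA4* and *ITGA6*, and for 7 with lower values, *LAMA5*, *LAMC3*, *ITGA7*, *ITGAE*, *ITGB2*, *ITGA2B* and *ITGA11*. These were 8.57% and 20% of the members, against 4.81% and 10.6% of all genes, and the difference between these shares was not tested. The log2 fold change of *LAMC1* was 0.53 after quantile normalization and 0.65 after centring, that of *LAMA5* -0.28 and -0.26.
The unadjusted p of *LAMC1* was under 0.05 in 13 of 14 settings, the exception being the filter on the interquartile range (0.195, from limma). *ITGA7* was not left by that filter. It passed the filter for values above the floor in at least 25% of the arrays through its small pools only. With that setting counted, its unadjusted p was under 0.05 in 13 of 13 settings (from limma). That of *LAMA4* exceeded 0.05 without large pool 2, 3 or 4 (0.061 to 0.081, from limma) or small pool 6 (0.104), and that of *LAMA5* without small pool 7 (0.063, from limma) and after centring (0.0503, from limma). *ITGB2* exceeded it without large pool 3 or 4 or small pool 6 or 7, *ITGAE* without large pool 3 or small pool 5, 6 or 7, and *ITGA2B* without large pool 2 or 3 or small pool 5, 6 or 7. These 3 genes also exceeded it after quantile normalization and after centring, with p of 0.061 and 0.060 for *ITGB2*, 0.055 and 0.071 for *ITGAE* and 0.091 and 0.094 for *ITGA2B* (from limma).

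**Figure D3:**
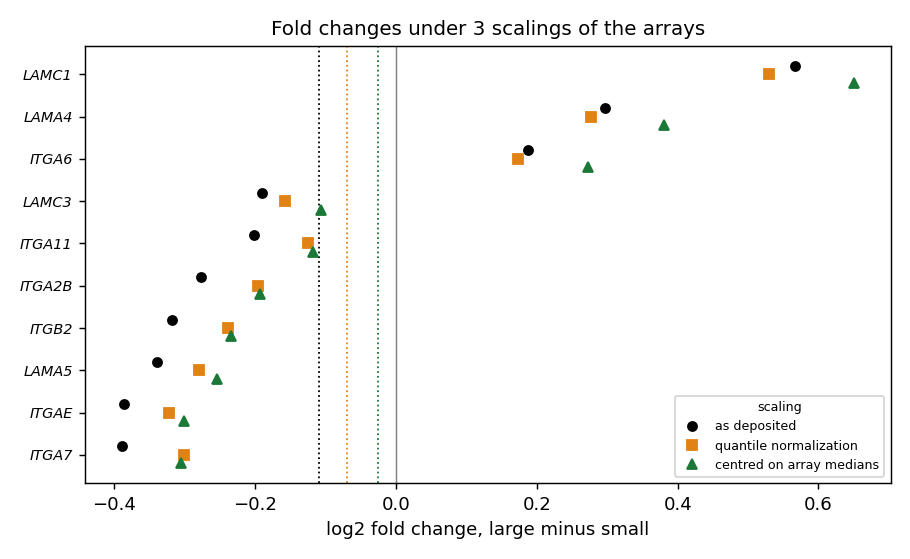
The horizontal axis gives the log2 fold change, large minus small, under 3 scalings for the 10 members whose groups did not overlap in any of them. Circles are the deposited values, squares a further quantile normalization and triangles centring on array medians, and dotted lines are the median over all genes in each; *LAMC1*, *LAMA4* and *ITGA6* stay right of 0 and the other members left of it.

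Genes that work with integrins and laminins were described from lists. Their counts are read beside all genes, of which 66.4% were lower in large cells. At an unadjusted p under 0.05 from limma, 4.33% of all genes were higher and 10.5% lower. Of 15 integrin activators and adaptors measured, 3 were higher and 12 lower in large cells, and at an unadjusted p under 0.05 from limma 2 were lower. These were the tensins *TNS3*, which link integrin tails to actin, with 8.98 ± 0.10 in large and 9.36 ± 0.20 in small cells (SD, n = 3 pools each), and *TNS1*, below the floor in all pools. Of 27 focal adhesion kinases and scaffolds, 11 were higher and 16 lower, with 2 higher and 1 lower at that limit. *PTK2*, the focal adhesion kinase, had 9.57, 9.34 and 9.33 in large pools, against 9.13, 9.14 and 9.11 in small pools. The groups did not overlap, with a log2 fold change of 0.29 and an adjusted p of 0.33 from limma. *ENAH*, an actin regulator, had a log2 fold change of 0.51 and *LIMS2*, an adaptor of integrin-linked kinase, one of -0.23.

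Of 21 basement membrane partners of laminin, 2 were higher and 19 lower, with 4 lower at an unadjusted p under 0.05 from limma, against 66.4% and 10.5% of all genes. *AGRN*, a heparan sulfate proteoglycan that binds laminin, had 6.86, 6.46 and 6.88 in large pools, against 7.15, 7.08 and 7.20 in small pools, a log2 fold change of -0.41. *COL4A3* and *COL18A1*, collagens of basement membranes, had -0.28 and -0.25, and *SPARC*, a collagen-binding protein, had -0.53. The nidogens *NID1* and *NID2*, which tie laminin to collagen IV, were below the floor in all pools.
Of 28 integrin ligands, 6 were higher and 22 lower, with 1 higher and 3 lower at that limit. Over all genes 66.4% were lower, and 4.33% were higher and 10.5% lower at that limit. *FBN1*, the microfibril protein with an RGD sequence, had 9.56, 9.77 and 9.61 in large pools, against 8.70, 8.40 and 9.08 in small pools, a log2 fold change of 0.92. *MFGE8*, a ligand of *ITGAV* integrins, had 10.00, 10.00 and 10.19 in large pools, against 10.56, 10.64 and 10.59 in small pools, a log2 fold change of -0.53. *SPP1* (osteopontin), also an RGD ligand, had a log2 fold change of -0.53. *CDH1* (E-cadherin), the ligand of the *ITGAE* integrin, was below the floor in all pools, with a log2 fold change of -0.33. The adjusted p of these ligands was 0.32 from limma.
Of 13 tetraspanins and membrane partners of integrins, 8 were higher and 5 lower, where 66.4% of all genes were lower. *SLC3A2*, which binds beta tails, had a log2 fold change of 0.32 and *TSPAN8*, below the floor in all pools, one of 0.64. Of 10 laminin receptors other than integrins 4 were higher and 6 lower, and of 5 hemidesmosome genes 1 was higher and 4 lower, with 0 genes at an unadjusted p under 0.05 in either list. Among all these lists 0 genes passed by limma.

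**Figure D4:**
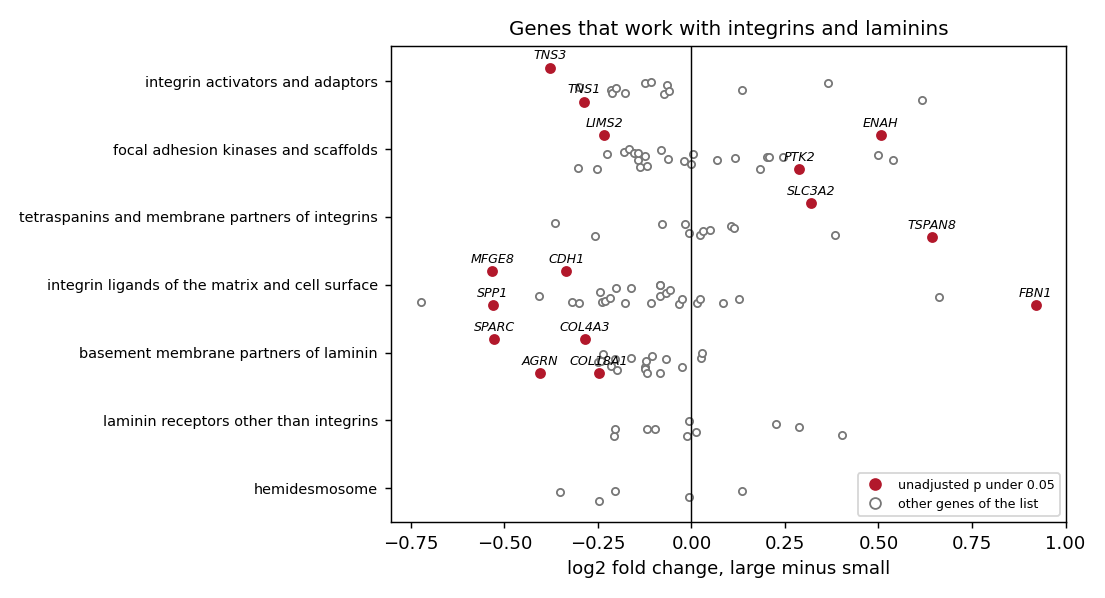
The horizontal axis gives the log2 fold change, large minus small, of each gene in 7 lists that work with integrins and laminins; vertical scatter within a list carries no value. Filled points had an unadjusted p under 0.05 from limma (3 pools against 3). Of the basement membrane partners all but 2 lie left of 0, where 66.4% of all genes lie as well.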

How the data were processed

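Amplified cDNA of 6 pools was measured on 6 arrays, 3 of large and 3 of small cells, grouped by the titles. The values deposited by the authors are log2 expression, preprocessed by robust multi-array averaging; the submitters' notes name Affymetrix Expression Console, and no source used here states the chip definition file. All columns were used. Of the probe sets 19158 had 1 gene symbol in the platform annotation. R 4.3.3 with limma 3.58.1 was fitted to large minus small on 1 probe set per gene, without covariates and without filters, with Benjamini-Hochberg adjustment over 18404 genes, and tested on simulated data. The thresholds follow the methods, which also removed unexpressed and unchanged genes without giving limits; such filters, other scalings, variance models, array weights, probe set choice and each pool left out were alternatives. Values are given for members with a mean over the floor, an unadjusted p under 0.05 or with groups that do not overlap, and up to 4 genes of each other list with such a p are named. Members and lists were chosen with earlier results of these data known. For arrays, their number limits the precision.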

Additional observations from a re-analysis of the deposited data

How the results depend on the processing

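With each alternative 0 genes passed by limma, and of the members the smallest adjusted p ranged from 0.297 to 0.671. At an unadjusted p under 0.05, 5 members were lower in large cells as deposited, 2 after quantile normalization and 1 after centring. The shares of all genes were 10.5%, 5.9% and 3.9%. With only genes above the floor in at least 25% of the arrays, which left 18 members, the groups did not overlap with lower values for 6. Over all genes left that share was 21.2%. *ITGA7* and *ITGB2* were above the floor in small pools only and passed this filter through them, so their lower values are no independent result there. *ITGA2* was above the floor in 2 of 3 large and 0 of 3 small pools. Its higher value (log2 fold change 0.23) is no independent result there either. With the filter on the floor and the interquartile range, which left 3 members (*LAMC1*, *ITGAV* and *ITGB8*), 0 were higher and 0 lower at that limit. Of all probe sets left, 6.44% were higher and 1.67% lower at that limit. In this setting 1 member did not overlap with higher and 0 with lower values, against 12.6% and 3.89% of the probe sets left. The median log2 fold change of the members was 0.57, against 0.20 over the probe sets left, of which 39.5% were lower. The members left had been kept for varying. With 1 pool left out, 1 to 2 members were higher and 1 to 4 lower at that limit, 3 to 4 did not overlap with higher and 11 to 14 with lower values, and the median was -0.18 to -0.09. Over all genes 3.72% to 4.69% were higher and 5.55% to 8.64% lower at an unadjusted p under 0.05 from limma then. Of all genes 8.06% to 9.71% did not overlap with higher and 25.7% to 30.5% with lower values, since smaller groups overlap less often. The fewest members lower at that p were left without small pool 7. Directions turned for members with a log2 fold change near 0 or a wide spread. *ITGA5* had 0.0047 after centring, and with 1 pool left out *ITGA5* ranged from -0.227 to 0.029, *ITGA3* from -0.070 to 0.158, *ITGAV* from -0.24 to 0.32, *LAMB2* from -0.038 to 0.063, *ITGB1* from -0.0069 to 0.17 and *ITGB5* from -0.50 to 0.23. The cause was not tested. No paired analysis was possible because large and small pools share no numbers. Signal near the floor limits the size of differences for the 20 members with a mean below it and for *ITGB2*.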
